A study of Homo sapiens with 3 samples.

Results

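The genes described here encode proteins that place, copy, remove or read 5-methylcytosine. They are the methyltransferase genes DNMT1 and DNMT3A, the genes UHRF1 and UHRF2, the dioxygenase genes TET1, TET2 and TET3, the glycosylase gene TDG, and the reader genes MBD2 and ZBTB38. They were chosen by name, 10 of the 18692 gene symbols in the UMI tables, and all 10 had UMIs in every table. A UMI marks 1 captured RNA molecule. The RNA of single cells from 3 cultures was sequenced, each culture as 1 library. In ldR-H460 and mdR-H460, the long-term and mid-term dR-H460 lines, cells derived from H460 through a protocol for reprogrammed cancer cells were measured. That protocol uses irradiated human fibroblasts as a feeder layer and for conditioning the medium. The third culture was the parental H460, an established cell line of human large-cell lung carcinoma. The labels describe ldR-H460, mdR-H460 and H460 by the codes IH460_D30, IH460_D13 and H460_P57 and do not explain them, so no time or passage was taken from them. They name no genotype change or drug, and the sources used here do not say whether the derivatives are clones. As each culture gave 1 library, there was no test between cultures and no replicate check, and a ratio compares libraries, not conditions.

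During DNA replication the new strand is made without methyl groups. UHRF1 binds the hemimethylated site and brings in DNMT1, which copies the mark. DNMT3A places marks on sites that had none, TET enzymes oxidise the methyl group, and TDG cuts out the oxidised bases so that base excision repair can restore plain cytosine. MBD2 and ZBTB38 bind methylated CpG sites and are known as repressors of transcription. None of these libraries measured DNA methylation.

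The ldR-H460, mdR-H460 and H460 libraries held 4956, 5151 and 4531 cells with 60468481, 66624830 and 66192074 UMIs. The median cell had 12342.5 UMIs in ldR-H460, 11736 in mdR-H460 and 14685 in H460, and mitochondrially encoded transcripts took 6.80%, 5.21% and 4.80% of the UMIs in that order. No ldR-H460 cell had 4000 or more detected genes, against 504 cells of mdR-H460 and 681 of H460. Pairs of libraries shared 24 to 36 cell barcodes. Of 8 epithelial markers 5 reached 1 CPM (counts per 1000000 UMIs of the library) in every library, summing to 1847 CPM in ldR-H460, 2764 in mdR-H460 and 3294 in H460, with no UMI of CDH1 in the tables used. Of 12 fibroblast markers 3, 1 and 4 reached 1 CPM in ldR-H460, mdR-H460 and H460, their sum was between 3.90 and 15.7 CPM, and THY1, PDGFRA, POSTN and FAP were at 0 throughout. Of 6 pluripotency markers 1, 1 and 0 did, summing to 0.680 CPM in H460 and at most 5.72 CPM in a derivative.

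Levels are given as CPM, and a level or fold is followed by its 95% interval in brackets, for counting error alone. These 3′ counts are not scaled by transcript length, so levels are compared between cultures and not between genes. A gene counted as higher or lower in a pair of libraries at 1.5-fold or more, with at least 1 CPM in the higher library. All 10 genes reached 1 CPM in every library except TET3, which had 0.931 CPM in mdR-H460. The comparisons of ldR-H460 and of mdR-H460 with H460 share the H460 library, so their values are set side by side and no agreement between them is counted.

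In ldR-H460 against H460, DNMT3A was higher and ZBTB38 lower, 1 of 10 genes each way. Among all 12151 genes measured for this pair, 11.6% were higher and 21.9% lower, so these counts are near the background. In mdR-H460 against H460, 0 of the 10 were higher and TET2, TET3 and ZBTB38 were lower, with 6.21% of 12002 genes higher and 22.5% lower. In ldR-H460 against mdR-H460, MBD2 was higher and 0 were lower, with 14.6% of 11799 genes higher and 10.6% lower. For ldR-H460 against H460 the median log2 ratio over the 10 genes was -0.27, and over all genes -0.13. For mdR-H460 against H460 the median log2 ratio was -0.19 over the 10 genes and -0.17 over all genes. For ldR-H460 against mdR-H460 it was 0.20 over the 10 genes and 0.08 over all genes. Nearest inside the limit stood ZBTB38, 1.54-fold lower in mdR-H460 against H460, and DNMT3A, 1.62-fold higher in ldR-H460 than in H460. Nearest outside stood TET2, 1.46-fold lower in ldR-H460 than in H460, ZBTB38, 1.46-fold lower in ldR-H460 than in mdR-H460, and MBD2, 1.43-fold lower in mdR-H460 against H460.

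**Figure D1:**
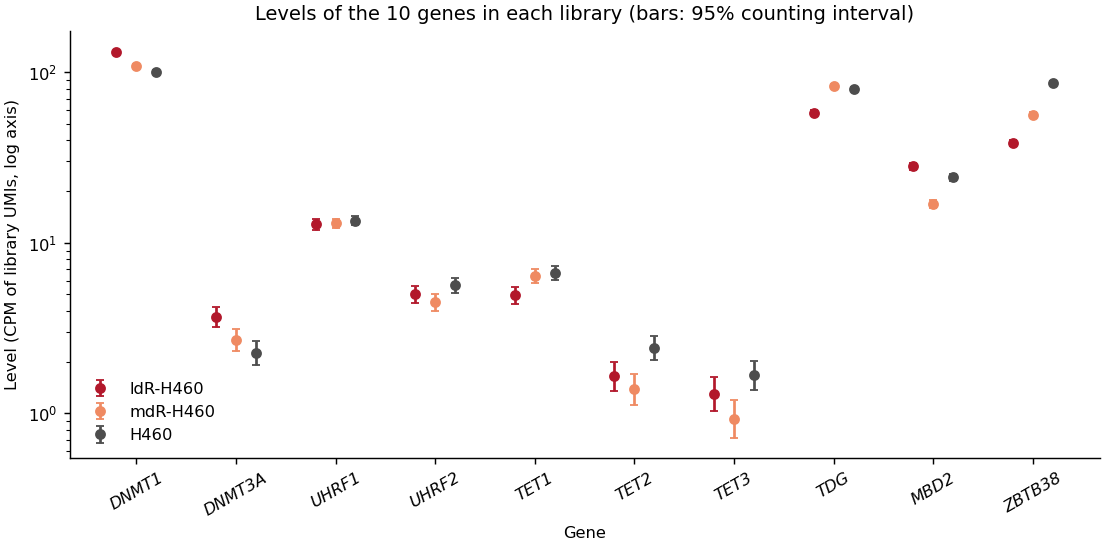
Level of each of the 10 genes in CPM on a log axis, with 1 point per library and its 95% counting interval, in ldR-H460 (left), mdR-H460 (middle) and H460 (right). ZBTB38 has 38.7, 56.5 and 87.0 CPM in this order, while the 3 points of UHRF1 lie between 12.8 and 13.5 CPM.

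**Figure D2:**
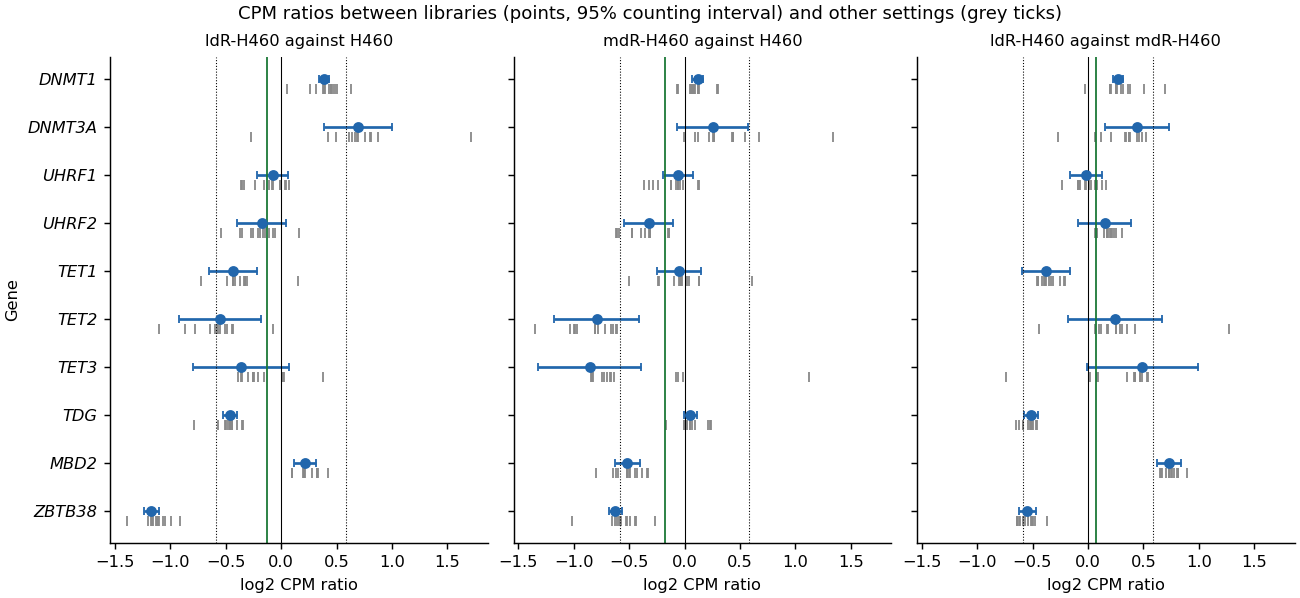
log2 CPM ratio of each gene for the 3 pairs of libraries, with its 95% counting interval, and grey ticks for other ways of scaling or choosing cells. Dotted lines mark 1.5-fold and the green line is the median of all genes, at -0.13, -0.17 and 0.08, and ZBTB38 in ldR-H460 against H460 stands farthest to the left at -1.17.

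ZBTB38, a zinc finger protein that binds methylated DNA, had the widest difference between cultures among the 10 genes. Its gene lies on chromosome 3, 141324213 to 141449792 (GRCh38, plus strand). It had 2338 UMIs in ldR-H460, 3762 in mdR-H460 and 5757 in H460, or 38.7 CPM (37.1 to 40.3), 56.5 CPM (54.7 to 58.3) and 87.0 CPM (84.7 to 89.3). ldR-H460 was thus lowest and H460 highest, and no 2 of the intervals overlapped. The level was 2.25-fold (2.14 to 2.36) lower in ldR-H460 than in H460, and 8.64% of all genes had a smaller ratio. It was 1.54-fold (1.48 to 1.61) lower in mdR-H460 than in H460, where 20.7% of all genes had a smaller ratio. The second of these is close to the 1.5-fold limit. With edgeR TMM factors its log2 ratio was -0.44 and with DESeq2 size factors -0.45, both short of that limit, against -0.62 with library totals.

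The share of cells with a ZBTB38 UMI followed the same order. After random thinning of the cells to 5000 UMIs, 18.5% (17.4 to 19.7) of 4521 ldR-H460 cells, 26.4% (25.0 to 27.8) of 3880 mdR-H460 cells and 34.9% (33.4 to 36.5) of 3850 H460 cells had such a UMI. Without thinning these shares were 35.4%, 44.9% and 61.7%. No cell type that should lack the gene was present in these cultures, so no background share from free RNA could be set beside them. In bulk sums and shares alike, fewer expressing cells and less RNA per cell cannot be told apart. Cells with 10 or more UMIs of the stress genes HSPA6 and DDIT3 together numbered 0 in ldR-H460, 90 in mdR-H460 and 41 in H460. The 90 cells held 3.91% of the ZBTB38 UMIs of mdR-H460 and 1.34% of all its UMIs. Without such cells the log2 ratio to H460 was -0.66 in mdR-H460 and -1.16 in ldR-H460.

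Among the maintenance genes, over all cells of a library, DNMT1 was moderately higher in ldR-H460 and UHRF1 was near level across the cultures. DNMT1, the maintenance methyltransferase (chromosome 19, 10133345 to 10231286, minus strand), had 131 CPM (128 to 134) in ldR-H460, 109 CPM (106 to 111) in mdR-H460 and 100.2 CPM (97.8 to 103) in H460. The ldR-H460 level was 1.31-fold (1.26 to 1.35) that of H460, short of the 1.5-fold limit, and the mdR-H460 level 1.09-fold (1.05 to 1.12) that of H460. After thinning, 45.9% of ldR-H460 cells had a DNMT1 UMI, against 36.2% of mdR-H460 and 35.6% of H460 cells. UHRF1, which recognises hemimethylated DNA (chromosome 19, 4903080 to 4962154, plus strand), had 12.8 CPM (11.9 to 13.8) in ldR-H460, 12.98 CPM (12.1 to 13.9) in mdR-H460 and 13.5 CPM (12.6 to 14.4) in H460. The 3 intervals overlapped, and the ratios to H460 were 0.9502 (0.862 to 1.05) in ldR-H460 and 0.961 (0.874 to 1.06) in mdR-H460. UHRF2, a close relative of UHRF1, had 4.99 CPM in ldR-H460, 4.50 CPM in mdR-H460 and 5.64 CPM in H460, each from 300 to 373 UMIs. Its mdR-H460 level was 1.25-fold (1.07 to 1.46) below that of H460.

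The promoter windows of these 3 genes are shown because DNMT1 and UHRF1 were higher in S phase than in G1 cells of every library, while UHRF2, the relative of UHRF1, passed the limit in H460 alone. Each runs 5′ to 3′ from 250 bases before to 50 bases after a gene start of RefSeq on GRCh38.p14, and capitals mark the words TTTCCCGC, TTTCGCGC, TTTGCCGC and TTTGGCGC, which are spellings of the E2F site, searched on both strands. E2F factors are known to drive genes of DNA replication.
DNMT1, chr19:10194904-10195203, minus strand: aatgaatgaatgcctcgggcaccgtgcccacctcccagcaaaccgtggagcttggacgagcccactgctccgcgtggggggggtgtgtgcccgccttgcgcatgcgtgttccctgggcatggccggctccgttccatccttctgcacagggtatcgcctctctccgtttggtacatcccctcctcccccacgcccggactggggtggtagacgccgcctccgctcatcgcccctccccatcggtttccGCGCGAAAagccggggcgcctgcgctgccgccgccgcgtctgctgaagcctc
UHRF1, window 1 of 3, chr19:4909251-4909550, plus strand: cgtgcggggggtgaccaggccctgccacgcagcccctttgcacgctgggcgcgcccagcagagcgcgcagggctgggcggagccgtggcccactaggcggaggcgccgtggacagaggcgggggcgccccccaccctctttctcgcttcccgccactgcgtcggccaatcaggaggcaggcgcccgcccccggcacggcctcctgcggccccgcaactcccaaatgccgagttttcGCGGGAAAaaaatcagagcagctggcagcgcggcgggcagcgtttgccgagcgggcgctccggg
UHRF1, window 2 of 3, chr19:4909894-4910193, plus strand: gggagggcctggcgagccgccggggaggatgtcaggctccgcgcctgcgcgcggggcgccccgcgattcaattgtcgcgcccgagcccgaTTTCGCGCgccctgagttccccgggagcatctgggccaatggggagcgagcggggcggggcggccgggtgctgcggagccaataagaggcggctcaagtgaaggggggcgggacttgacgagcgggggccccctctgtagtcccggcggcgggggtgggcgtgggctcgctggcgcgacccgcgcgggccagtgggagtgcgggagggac
UHRF2, chr9:6412949-6413248, plus strand: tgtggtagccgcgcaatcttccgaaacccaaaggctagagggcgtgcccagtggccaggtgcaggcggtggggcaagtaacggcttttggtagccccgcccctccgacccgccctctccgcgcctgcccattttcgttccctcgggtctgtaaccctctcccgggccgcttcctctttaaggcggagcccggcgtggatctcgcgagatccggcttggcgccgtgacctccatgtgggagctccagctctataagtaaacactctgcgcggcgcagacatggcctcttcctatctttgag

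The DNMT1 window held 1 such word, starting at base 249 of the window counted from its 5′ end and so lying across that RefSeq gene start. The RefSeq starts used for DNMT1 and UHRF1 lie inside the GENCODE spans given above and not at their 5′ ends. UHRF1 had 1 word in window 1, at base 237, and 1 in window 2, at base 91, and none in window 3. No window of the other 8 genes held these letters, and neither did the UHRF2 window shown. Of all 35116 windows of the same length in the table, 1164 (3.31%) held a word. Counted by gene symbol, 1090 of 27305 (3.99%) had a word in any of their windows. No word overlapped another. These matches describe letters and not bound sites. Each word holds a CpG, and the shares over all windows and symbols were not matched for CpG content. The windows shown are rich in CpG, with 0.874 of the CpG count that their base content would give for DNMT1, 0.877 and 0.970 for UHRF1 and 0.870 for UHRF2, against a median of 0.579 over all windows.

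DNMT3A, the methyltransferase that acts on unmethylated sites (chromosome 2, 25227855 to 25342590, minus strand), was sparse. It had 222 UMIs in ldR-H460, 180 in mdR-H460 and 150 in H460, or 3.67 CPM (3.20 to 4.19), 2.70 CPM (2.32 to 3.13) and 2.27 CPM (1.92 to 2.66). The interval of ldR-H460 lay above that of H460 and that of mdR-H460 overlapped only the H460 interval. The level was 1.62-fold (1.31 to 2.01) higher in ldR-H460 than in H460 and 1.36-fold (1.11 to 1.66) that of mdR-H460. Among cells called S phase alone the log2 ratio to H460 was -0.28, from 23 and 25 UMIs. With cells weighted equally it was 0.43, and with thinned cells 0.50, both short of the limit. DNMT3B, the other gene of its kind, had 49, 16 and 19 UMIs in ldR-H460, mdR-H460 and H460, under 1 CPM in each.

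Of the erasers, the TET genes were sparse and TDG was well counted. TET1 (chromosome 10, 68560656 to 68694482, plus strand) had 4.91 CPM (4.37 to 5.50) in ldR-H460, 6.39 CPM (5.80 to 7.03) in mdR-H460 and 6.62 CPM (6.01 to 7.27) in H460. ldR-H460 was the low library, 1.35-fold (1.16 to 1.57) below H460, and the other intervals overlapped. TET2 (chromosome 4, 105145875 to 105279816, plus strand) had 100, 93 and 160 UMIs in ldR-H460, mdR-H460 and H460, or 1.65, 1.40 and 2.42 CPM. It was 1.73-fold (1.33 to 2.26) lower in mdR-H460 than in H460, and 1.46-fold (1.13 to 1.90) below H460 in ldR-H460. TET3 (chromosome 2, 73986404 to 74108176, plus strand) had 79, 62 and 111 UMIs in the same order, or 1.31, 0.931 and 1.68 CPM. It was 1.80-fold (1.31 to 2.50) lower in mdR-H460 than in H460. Among cells called G1 alone its log2 ratio for that pair was 1.12, from 13 and 6 UMIs, against -0.85 over all cells.

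TDG, the thymine DNA glycosylase (chromosome 12, 103965804 to 103988874, plus strand), had 57.9 CPM (56.0 to 59.9) in ldR-H460, 82.8 CPM (80.6 to 85.0) in mdR-H460 and 79.8 CPM (77.6 to 81.9) in H460. ldR-H460 was the low library, and the intervals of mdR-H460 and H460 overlapped. Its level in ldR-H460 was 1.38-fold (1.32 to 1.44) below that of H460 and 1.43-fold (1.37 to 1.49) below that of mdR-H460, both short of 1.5-fold. With DESeq2 size factors TDG was lower by the 1.5-fold rule in ldR-H460 against mdR-H460, at a log2 ratio of -0.59. A TDG UMI was found in 24.9%, 33.4% and 33.0% of thinned ldR-H460, mdR-H460 and H460 cells. TDG, TET1 and UHRF2 have processed pseudogenes, so their counts are uncertain to that extent. Another gene of the tables shares the strand with DNMT1 (S1PR2) and with ZBTB38 (PXYLP1), and neither covers the 3′ end of its partner, where reads are counted.

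MBD2, a methyl-CpG reader that joins the NuRD deacetylase complex (chromosome 18, 54151601 to 54224788, minus strand), was lowest in mdR-H460. It had 1699 UMIs in ldR-H460, 1127 in mdR-H460 and 1602 in H460, or 28.1 CPM (26.8 to 29.5), 16.9 CPM (15.9 to 17.9) and 24.2 CPM (23.0 to 25.4), with no overlap between intervals. The level in ldR-H460 was 1.66-fold (1.54 to 1.79) higher than in mdR-H460, and 9.69% of all genes had a larger ratio. It was 1.16-fold (1.08 to 1.24) that of H460 in ldR-H460 and 1.43-fold (1.32 to 1.54) below H460 in mdR-H460. For ldR-H460 against mdR-H460 all 15 alternatives that changed the scaling or the cells gave a ratio past 1.5-fold, between 1.57 and 2.08.

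To see how the 10 genes go with the cell cycle, each thinned cell was called S, G2/M or G1 from widely used lists of S phase and G2/M genes. UHRF1, which the usual S phase list holds, was taken out, so that none of the 10 is in the lists used, and current symbols were added beside older ones (such as CENPU beside MLF1IP). Of 43 S phase symbols 42 were found, and of 56 G2/M symbols 54. S cells made up 37.6%, 26.9% and 39.6% of ldR-H460, mdR-H460 and H460, G2/M cells 42.1%, 36.2% and 23.1%, and G1 cells 20.3%, 36.9% and 37.3%. These shares depend on the depth of thinning: at 10000 UMIs, which 3414, 2852 and 3112 cells reached, G2/M cells made up 53.3%, 50.1% and 27.2% and G1 cells 11.4%, 23.8% and 33.6%. A larger part of the ldR-H460 cells, 32.4%, lay near a limit between phases, against 23.4% in mdR-H460 and 24.5% in H460. G1 cells of ldR-H460 also held more list UMIs, on average 2.72 of S phase and 9.30 of G2/M genes per cell, than those of mdR-H460 with 1.96 and 7.16 or of H460 with 2.33 and 8.04. Before thinning, S cells had a median of 12728, 17290 and 17155 UMIs in ldR-H460, mdR-H460 and H460, and G1 cells were shallower at 10862, 10169 and 13943.5.

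DNMT1 and UHRF1 were higher in S than in G1 cells of every library. DNMT1 had 154 CPM in S and 68.5 CPM in G1 cells of ldR-H460, 2.25-fold (1.99 to 2.56) higher. It had 129 CPM in S and 42.3 CPM in G1 cells of mdR-H460, 3.06-fold (2.67 to 3.51) higher, and 124 CPM in S and 44.3 CPM in G1 cells of H460, 2.80-fold (2.46 to 3.19) higher. UHRF1 had the larger contrast, 18.8 CPM in S and 5.00 CPM in G1 cells of ldR-H460, 3.77-fold (2.42 to 6.12) higher. In mdR-H460 it was 4.43-fold (2.95 to 6.80) higher in S cells and in H460 4.33-fold (3.06 to 6.26) higher. Between 96.4% and 99.1% of all genes had a smaller S to G1 ratio than either gene.

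In G2/M cells DNMT1 stayed high and UHRF1 stood between S and G1. DNMT1 was 1.98-fold (1.75 to 2.25), 3.27-fold (2.87 to 3.73) and 2.95-fold (2.57 to 3.39) higher in G2/M than in G1 cells of ldR-H460, mdR-H460 and H460. UHRF1 was 2.10-fold (1.33 to 3.47), 2.77-fold (1.83 to 4.30) and 2.42-fold (1.60 to 3.71) higher. In ldR-H460 the G2/M contrast depended on how cells were classed: between the highest and lowest tercile of cells by G2/M list UMIs the log2 ratio was 0.54 for DNMT1 and 0.05 for UHRF1, each short of 1.5-fold. UHRF1 also fell short with cells thinned to 10000 UMIs, at 0.29, and with all UMIs of the same cells, at 0.38, and passed the limit only in the alternative without cells near a limit between phases, at 1.91. The S phase contrast of both genes passed 1.5-fold in every library under all 4 alternative ways of classing or counting cells.

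Over the 10 genes, S cells against G1 cells had 3 higher and 2 lower in ldR-H460, 2 higher and 1 lower in mdR-H460, and 4 higher and 0 lower in H460. Of all genes other than those of the phase lists, 14.9% were higher and 13.8% lower in ldR-H460, 16.7% higher and 21.1% lower in mdR-H460, and 14.8% higher and 11.8% lower in H460. For G2/M against G1 cells, 2 of the 10 were higher and 1 lower in ldR-H460, where 15.1% of all genes were higher and 14.3% lower. In mdR-H460 3 were higher and 1 lower, with 16.2% of all genes higher and 24.0% lower, and in H460 4 were higher and 1 lower, with 15.1% higher and 16.8% lower. Beside DNMT1, UHRF1 and ZBTB38, these calls came from genes with few thinned UMIs. TET3 was 2.98-fold (1.14 to 9.12) higher in S cells of H460, from 19 and 6 UMIs, and 2.06-fold (0.744 to 7.06) in ldR-H460. UHRF2 was 1.62-fold (1.03 to 2.59) higher in S cells of H460 and 1.13-fold (0.674 to 1.95) that of G1 cells in ldR-H460. TET1 was 1.56-fold (1.02 to 2.41) higher in G2/M cells of mdR-H460 and 0.718 (0.424 to 1.18) of the G1 level in H460. TET2 in ldR-H460 had 14 UMIs in S, 11 in G2/M and 14 in G1 cells, and its direction turned with the depth of thinning. DNMT3A had 5 UMIs in G2/M and 17 in G1 cells of H460. At this depth the phase pattern of these 5 genes was not resolved.

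**Figure D3:**
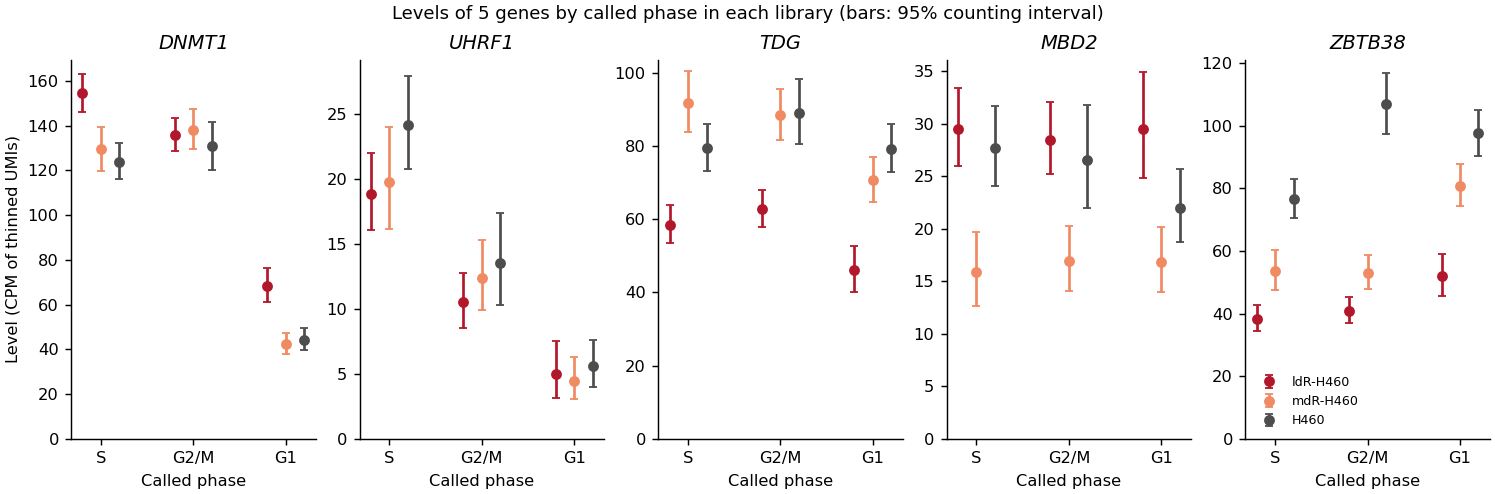
Level in CPM of DNMT1, UHRF1, TDG, MBD2 and ZBTB38 in cells called S, G2/M and G1, with the libraries ldR-H460 (left), mdR-H460 (middle) and H460 (right) and 95% counting intervals. DNMT1 and UHRF1 are lowest in G1 cells of every library, and the ZBTB38 points of ldR-H460 lie lowest in every phase.

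The remaining well-counted genes varied less with phase. TDG was 1.27-fold (1.08 to 1.499) and 1.30-fold (1.14 to 1.48) that of G1 cells in S cells of ldR-H460 and mdR-H460, and level in H460 at a ratio of 1.00 (0.893 to 1.13). MBD2 in S cells had ratios to G1 of 1.00 (0.808 to 1.24), 0.943 (0.705 to 1.26) and 1.26 (1.02 to 1.55) in ldR-H460, mdR-H460 and H460. ZBTB38 ran the other way from DNMT1, with S to G1 ratios of 0.739 (0.624 to 0.877), 0.662 (0.571 to 0.764) and 0.784 (0.702 to 0.877). That of mdR-H460 passed the limit, at 1.51-fold (1.31 to 1.75) lower. In G2/M cells ZBTB38 had 40.9 CPM against 52.0 CPM in G1 cells of ldR-H460, and 53.0 CPM against 80.9 CPM in mdR-H460. In H460 it had 107 CPM in G2/M cells and 97.6 CPM in G1 cells, a ratio of 1.09 (0.972 to 1.23).

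Set against the number of S phase list UMIs in a cell, DNMT1 and UHRF1 were higher in each step of cells. With 0 to 1 such UMIs per thinned cell DNMT1 had 38.7 CPM in ldR-H460, 25.3 CPM in mdR-H460 and 28.5 CPM in H460. With 15 or more it had 171, 169 and 153 CPM in the same order. At 2 to 4 list UMIs ldR-H460 had 94.8 CPM (86.2 to 104), mdR-H460 66.7 CPM (59.0 to 75.2) and H460 53.6 CPM (46.3 to 61.6). Cells of that step also differed in G2/M list UMIs, with a mean of 22.3 per cell in ldR-H460, 14.2 in mdR-H460 and 10.9 in H460. The part of this in the DNMT1 difference was not tested. UHRF1 had 2.45, 2.01 and 2.38 CPM in the lowest step and 25.3, 24.5 and 26.9 CPM in the highest, and the libraries' intervals overlapped in every step. ZBTB38 was highest in H460 in every step. In the lowest step its H460 interval, 81.4 to 104 CPM, overlapped that of mdR-H460, 71.6 to 90.8 CPM.

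**Figure D4:**
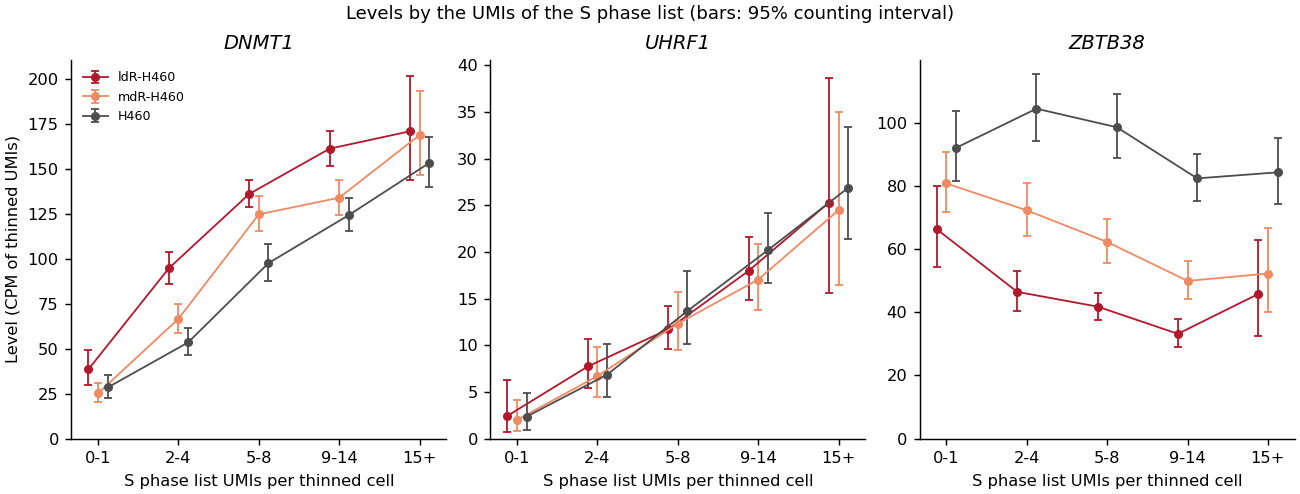
Level in CPM of DNMT1, UHRF1 and ZBTB38 in cells grouped by the number of S phase list UMIs per thinned cell, 1 line per library, with 95% counting intervals. The UHRF1 lines of the 3 libraries lie over each other, DNMT1 is higher in ldR-H460 at 2 to 4 list UMIs with 94.8 CPM against 53.6 CPM in H460, and ZBTB38 keeps H460 on top.

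Because the libraries differed in their called phases, the ratios between them were also taken within called phases. The calls used limits common to the libraries, while the list genes themselves differed between libraries. In ldR-H460 against H460 the median log2 ratio was -0.37 for the S phase list and 0.24 for the G2/M list. Whether the list genes or the phases shifted was not tested, so cells of 1 called phase may not match between libraries. ZBTB38 was lower in ldR-H460 than in H460 in each, 2.00-fold (1.74 to 2.29) in S, 2.61-fold (2.28 to 3.00) in G2/M and 1.88-fold (1.62 to 2.18) in G1 cells. In mdR-H460 it was 2.02-fold (1.76 to 2.32) lower than in H460 in G2/M cells, and 1.43-fold (1.24 to 1.65) and 1.21-fold (1.08 to 1.35) below H460 in S and G1 cells. MBD2 was higher in ldR-H460 than in mdR-H460 by 1.86-fold (1.44 to 2.41) in S, 1.68-fold (1.35 to 2.10) in G2/M and 1.75-fold (1.36 to 2.25) in G1 cells. TDG was lower in ldR-H460 than in H460 by 1.72-fold (1.47 to 2.02) in G1 cells, and 1.36-fold and 1.42-fold below H460 in S and G2/M cells. UHRF1, near level over all cells, had a ratio of ldR-H460 to H460 of 0.781 (0.628 to 0.971) in S cells. That ratio was 0.779 (0.560 to 1.09) in G2/M and 0.898 (0.513 to 1.54) in G1 cells. All of these UHRF1 ratios were short of 1.5-fold. Called S cells of ldR-H460 held a mean of 10.2 S phase list UMIs, against 13.3 in H460. Of these S cells 38.5% in ldR-H460 and 29.2% in H460 lay near a limit between phases. UHRF1 rises with the S phase list UMIs, and the part of this in its S cell ratio was not tested.

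DNMT1 was higher in ldR-H460 than in H460 by 1.55-fold (1.32 to 1.81) among G1 cells. It was 1.25-fold (1.15 to 1.36) that of H460 in S and 1.04-fold (0.942 to 1.15) in G2/M cells. The G1 difference moved with how the cells were chosen. Among cells with at most 2 S phase and at most 8 G2/M list UMIs, a limit set after the values were seen, DNMT1 had 27.5 CPM in 371 ldR-H460 cells and 33.3 CPM in 618 H460 cells, a ratio of 0.825 (0.578 to 1.16). Among G1 cells away from a limit between phases, a choice also made after the values were seen, it had 46.3 CPM in 527 ldR-H460 cells and 39.2 CPM in 1132 H460 cells, a ratio of 1.18 (0.939 to 1.48). Both intervals include 1, and DNMT1 was higher in ldR-H460 under 14 of 15 alternatives. In the cells with few list UMIs ZBTB38 had 67.9 CPM in ldR-H460 and 97.1 CPM in H460, a ratio of 0.700 (0.564 to 0.864), short of the 1.5-fold limit. TDG there was 2.27-fold lower in ldR-H460 than in H460, with 36.1 and 81.9 CPM. MBD2 in ldR-H460 was 1.97-fold (1.35 to 2.88) that of 825 mdR-H460 cells.

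Across thinned cells within a library, the genes most like DNMT1 among 3291 genes seen in at least 10% of cells of every library were H2AFZ, PTMA, HMGB1, KIAA0101 and CKS1B. Their Pearson correlation with DNMT1, averaged over the 3 libraries, was 0.242, 0.220, 0.198, 0.198 and 0.192. H2AFZ encodes a histone variant, KIAA0101 a PCNA-binding protein and CKS1B a cyclin-dependent kinase subunit, and CKS1B is itself in the phase lists. TDG and ZBTB38 had no gene above a mean of 0.075 and 0.092, which in counts this sparse is no finding, and the other 7 genes were seen in too few cells to be ranked. Points of these correlations are cells of the same library at equal depth.

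Genes that work with the 10 were counted from lists that also hold other members of each pathway. Of 14 measured partners of maintenance methylation and methyl donor supply, 2 were higher and 1 lower in ldR-H460 than in H460, and 0 higher and 1 lower in mdR-H460 than in H460. Over all genes 11.6% were higher and 21.9% lower in ldR-H460, and 6.21% higher and 22.5% lower in mdR-H460. AHCY, which clears the product that inhibits methyltransferases, had 248 CPM in ldR-H460, 195 in mdR-H460 and 138 in H460, 1.80-fold (1.75 to 1.84) higher in ldR-H460 than in H460. CDCA7, which recruits the remodeller HELLS, was 1.77-fold (1.69 to 1.85) higher, and PCNA, the replication clamp, 1.64-fold lower with 84.7 CPM in ldR-H460 and 139 CPM in H460. CDCA7 and PCNA also belong to the S phase list, of whose 42 measured genes 1 was higher and 11 lower in ldR-H460 than in H460. In mdR-H460, MTR, the methionine synthase, was 1.69-fold lower than in the parental line. The median log2 ratio of the list was 0.12 for ldR-H460 and -0.08 for mdR-H460 against H460.

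Of 20 partners of base excision and demethylation, 4 were higher and 3 lower in ldR-H460 than in H460, beside 11.6% and 21.9% of all genes. IDH1 and IDH2, whose product 2-oxoglutarate TET enzymes use, were 1.57-fold (1.502 to 1.65) and 1.78-fold (1.67 to 1.89) higher. CXXC5, a CXXC-domain protein, was 1.86-fold (1.70 to 2.03) higher. NEIL1, a glycosylase of base excision repair, was 2.98-fold lower with 0.645 CPM in ldR-H460 and 1.92 CPM in H460, and the repair polymerase POLB 1.76-fold lower. GADD45B had 14.9 CPM in ldR-H460, 34.5 CPM in mdR-H460 and 23.7 CPM in H460. GADD45A had 50.3, 107 and 70.6 CPM in the same order. In mdR-H460 against H460 2 were higher and 3 lower, beside 6.21% and 22.5% of all genes. PARP1, which senses DNA breaks, was 1.72-fold lower with 115 CPM in mdR-H460 and 197 CPM in H460, and the stress-inducible GADD45G was 1.92-fold (1.74 to 2.12) higher. The list's median log2 ratio was 0.09 for ldR-H460 and -0.01 for mdR-H460 against H460.

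Of 18 methyl-CpG readers and NuRD subunits, 1 was higher and 1 lower in ldR-H460 than in H460 and 0 higher and 2 lower in mdR-H460 than in H460. The shares over all genes were 11.6% higher and 21.9% lower in ldR-H460, and 6.21% and 22.5% in mdR-H460. ZBTB4, which with ZBTB38 and ZBTB33 makes up the zinc finger readers, had 3.61 CPM in ldR-H460, 2.94 CPM in mdR-H460 and 6.33 CPM in H460. Relative to H460 it was 1.76-fold lower in ldR-H460 and 2.15-fold lower in mdR-H460. In ldR-H460 against mdR-H460 2 of the 18 were higher and 0 lower, beside 14.6% and 10.6% of all genes. CHD3, a NuRD helicase, was among them, 1.82-fold (1.71 to 1.95) higher in ldR-H460 than in mdR-H460. The list's median log2 ratio was -0.03 for ldR-H460 and -0.15 for mdR-H460 against H460, beside -0.13 and -0.17 over all genes.

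Of 5 genes tied to ZBTB38 itself, none passed 1.5-fold against H460 in either derivative. Over all genes 11.6% were higher and 21.9% lower in ldR-H460, and 6.21% higher and 22.5% lower in mdR-H460. A count of 0 among so few genes is therefore no finding. In ldR-H460 against mdR-H460 1 of the 5 was higher and 0 lower, beside 14.6% and 10.6% of all genes. That gene was USP9X, known as the deubiquitinase of the ZBTB38 protein, 1.73-fold (1.62 to 1.84) higher in ldR-H460. Of 24 germline genes known to be silenced by promoter methylation, 2 were measured at 1 CPM or more in any library. MAGEA1 was among them, with 64.0 CPM in ldR-H460, 108 in mdR-H460 and 102 in H460. MAGEA1 was 1.60-fold lower in ldR-H460 than in H460, where 21.9% of all genes were lower. MAGEB2, the other measured gene, had 43.0, 59.5 and 58.0 CPM in the same order and was short of 1.5-fold.

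**Figure D5:**
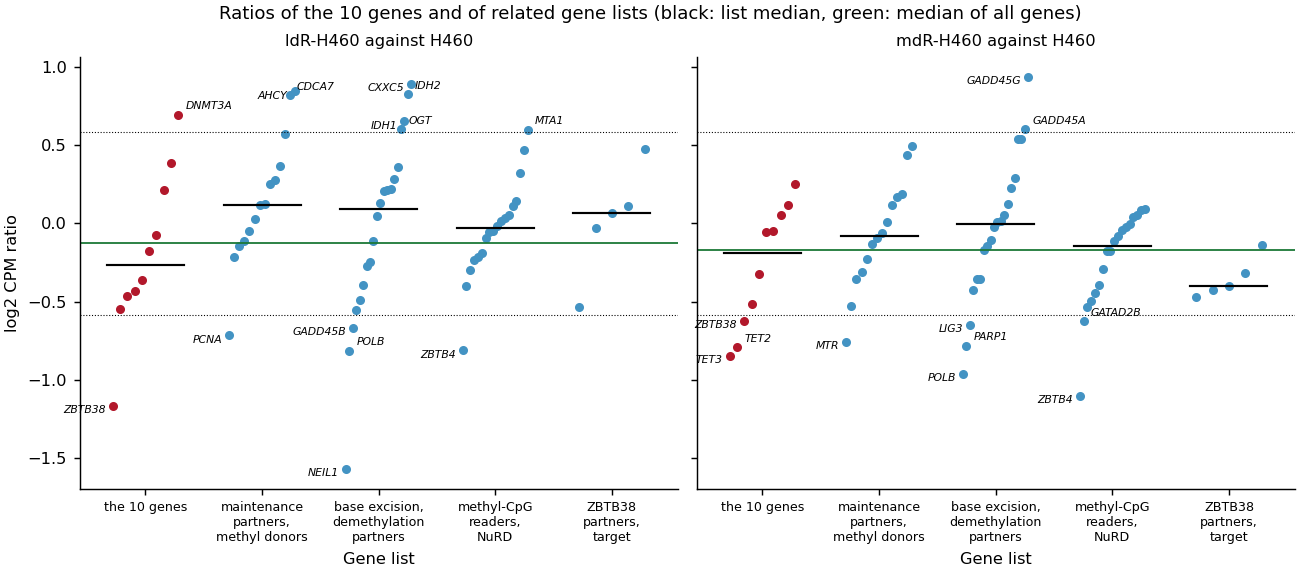
log2 CPM ratio of the 10 genes (red) and of the measured genes of 4 related lists (blue) against H460, for ldR-H460 (left) and mdR-H460 (right), with genes past 1.5-fold named. The black bars are list medians, which lie between -0.40 and 0.12, and the green lines are the medians of all genes at -0.13 and -0.17.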

How the data were processed

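Single-cell 3′ libraries (version 2 chemistry, 5000 cells targeted) were made from 3 cultures, 1 library each, per the labels' protocols. The submitters' processing notes list Cell Ranger 3.0.2, Seurat 3.0 and GRCh38, with no roles given. As deposited, each table gives counts of UMIs for every symbol and cell, not normalized, for cells the authors had kept after quality filtering, per the series design text. The sources used here do not give the annotation release. No per-sample column was left unmapped (0).

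CPM are a gene's UMIs in a library over the library's total. Levels have exact Poisson intervals, ratios exact binomial-based intervals and shares Clopper-Pearson intervals, all at 95% and for counting error alone. A count of 0 allows up to 3 UMIs. No p-value was computed. For shares and phases cells were thinned to 5000 UMIs, which left out 435, 1271 and 681 cells of ldR-H460, mdR-H460 and H460 (8.78%, 24.7% and 15.0%). Phases were called on the pooled thinned cells with scanpy 1.11.5. Doublets were not called or removed. The ratio and thinning steps were tested on simulated data.

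Alternatives covered edgeR 4.0.16 TMM and DESeq2 1.42.0 factors, totals without mitochondrial and ribosomal protein genes, cell filters, phases, depth, fold and CPM limits. All 10 genes are named. From each list, genes past 1.5-fold in a pair could be named, up to 6 by size, and up to 5 most correlated genes for each gene seen in at least 10% of cells. DNMT3B, chosen after its values were seen, and MAGEB2, short of 1.5-fold, fall outside this rule. The rule was not kept for base excision and demethylation partners, where more than 6 genes were named and not by size alone. Positions are from GENCODE v29 on GRCh38 by symbol, and promoters from RefSeq on GRCh38.p14, with all 10 genes matched in both. The genes, lists and limits were chosen with earlier results of these data known.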

Additional observations from a re-analysis of the deposited data

Results flagged for a closer look

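ZBTB38 was lower in G2/M than in G1 cells of both derivatives and near level in H460. It was flagged by a rule that asks for ratios on either side of 1 with intervals that do not overlap. The G2/M to G1 ratio of its CPM was 0.787 (0.668 to 0.928) in ldR-H460 and 0.654 (0.573 to 0.746) in mdR-H460, against 1.09 (0.972 to 1.23) in H460. The intervals of both derivatives lay below that of H460, which the rule itself required, so this adds no support. The H460 interval includes 1. In H460 the ratio kept its direction in 2 of 4 alternatives. With 1 library per culture the difference itself was not tested. With cells thinned to 10000 UMIs the log2 ratio was -0.36 in ldR-H460, -0.60 in mdR-H460 and 0.00 in H460. More cells were called G2/M in ldR-H460 (42.1%) and mdR-H460 (36.2%) than in H460 (23.1%), and the part of this in the result was not tested.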

How the results depend on the processing

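Counts of the 10 genes past the limit are given with the number that passes under the main choices. For ldR-H460 against H460 (2) they were 5 with G1 cells, 1 with cells weighted equally and 1 at 2-fold. For mdR-H460 against H460 (3) they were 6 with G2/M cells and 0 at 2-fold. For ldR-H460 against mdR-H460 (1) they were 2 with TMM factors, thinned cells, cells under 4000 detected genes, S cells, cells weighted equally or phases averaged, 3 with DESeq2 factors, 6 with G1 cells and 0 at 2-fold. Alternatives added after the values were seen gave 5 and 3 for ldR-H460 against H460 and against mdR-H460 with at most 2 S phase and 8 G2/M list UMIs, and 6 and 3 with G1 cells away from a limit. At 2-fold 5.43% of all genes were higher and 10.9% lower in ldR-H460 against H460, and 2.90% and 10.1% in mdR-H460 against H460. In ldR-H460 against mdR-H460 5.14% were higher and 4.42% lower at 2-fold. The shares over all genes were larger than under the main choices with S cells, G1 cells, G2/M cells and the added alternatives. The exception was the share lower in mdR-H460 against H460 with G1 cells, at 22.0% against 22.5%. With G1 cells 16.8% were higher and 28.1% lower in ldR-H460 against H460, and 20.1% and 19.6% in ldR-H460 against mdR-H460, and with G2/M cells 9.01% and 28.4% in mdR-H460 against H460. With few list UMIs 21.2% were higher and 31.7% lower in ldR-H460 against H460 and 23.2% and 22.8% in ldR-H460 against mdR-H460, and with G1 cells away from a limit 17.1% and 31.1%, and 20.4% and 24.0%, for the same pairs. With TMM factors 12.1% of all genes were higher and 12.6% lower in ldR-H460 against mdR-H460, and with DESeq2 factors 11.9% and 12.8%. For that pair thinned cells gave 15.5% and 12.2%, cells under 4000 detected genes 14.4% and 10.7%, and S cells 19.0% and 13.1%. Cells weighted equally gave 17.1% and 13.6%, and phases averaged 15.15% and 12.2%. In ldR-H460 against H460 cells weighted equally gave 12.3% and 24.0%. For S against G1 cells of ldR-H460 (5) 3 passed at 2-fold. For G2/M against G1 cells of ldR-H460 (3) they were 1 between terciles, 5 with cells thinned to 10000 UMIs, 1 with all UMIs and 5 without cells near a limit. In mdR-H460 (4) 2 passed at 2-fold, and in H460 (5) 2 with all UMIs, 3 without cells near a limit and 3 at 2-fold. For these phase comparisons no share over all genes is given under the same settings, so the counts are not read against a background. ZBTB38 in ldR-H460 against H460 kept its direction in all 15 alternatives and passed the limit in 14. Called log2 ratios turned for DNMT3A in S cells, ldR-H460 against H460 (-0.28), for TET3 in mdR-H460 against H460 with G1 cells (1.12), with few list UMIs (2.39) and with G1 cells away from a limit (1.41), and for TET2 in ldR-H460, S against G1 at 10000 UMIs (0.051) and without cells near a limit (0.18) and G2/M against G1 at 10000 UMIs (0.46). The cause was not tested. No replicate could be left out and no paired analysis was possible because each culture has 1 library. TMM or DESeq2 factors add 0.12 or 0.10 to the log2 ratios of ldR-H460 and 0.18 to those of mdR-H460 against H460. Depth limits TET2, TET3 and DNMT3A, with 62 to 222 UMIs a library.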

Other observations

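Among pairs of the 10 genes, the Pearson correlation over thinned cells within a library, averaged over the 3 libraries, was highest for DNMT1 with UHRF1 at 0.035, which in counts this sparse is no finding. Cells with 10 or more UMIs of the calprotectin genes S100A8 and S100A9 numbered 848 in mdR-H460, where they held 25.0% of all UMIs and 26.5% of the DNMT1 UMIs.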
